A study of Arabidopsis thaliana with 5 samples.

Results

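The loci described here are those of *Arabidopsis thaliana* that give rise to microRNA precursors (MIR loci), as printed on a spotted long-oligonucleotide array. A spot was taken as a member when the symbol or description of its locus begins with MIR and a digit. Read from the files alone, this rule found 1 spot, that of *MIR162A*, because the symbol and description fields of the other MIR loci are blank or hold a dash. Read through the RefSeq name of the locus that each spot is annotated with, it found 91 spots at 87 loci of 23 families, out of 29234 gene spots at 26017 loci. RefSeq lists 326 miRNA loci in all. This second reading was adopted after the files had been examined, and all counts below rest on it. Of the 91 spots, 87 were printed in row 25 of a print block, beside 666 other gene spots of that row, and 4 in other rows.

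MicroRNA genes are transcribed into long primary transcripts that fold into hairpins, from which DCL1 and its partners cut a short duplex. The mature strand is loaded into AGO1 and guides it to complementary mRNAs, which are cleaved or translated less. In leaves, many conserved families act on transcription factors of development (miR156, miR164, miR165, miR166, miR172), and others on nutrient and stress pathways, such as miR395 for sulphate, miR398 for copper and miR399 for phosphate. A labelled target made from total leaf RNA is expected to hybridise to the precursor transcript, so the mature miRNA was not measured by these spots.

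There were 5 arrays with 10 channels. Each carried RNA of a transgenic line, labelled with Cy5, and RNA of wild-type (WT) Col-0 plants in the same state, labelled with Cy3, and dyes were not swapped. OE-*AhERF-VII* plants, which overexpress an ethylene response factor of grain amaranth, were compared with WT in optimal growth (Op), in water stress (WS, 5 days without irrigation) and in recovery (R, 24 h after rewatering). OE-*AhDof-AI* plants, which overexpress an amaranth Dof transcription factor, were compared with WT in Op and in salt stress (SS, 40 mL of 400 mM NaCl on 3 days). All groups were rosette leaves of 5-week-old plants per the labels, and each transgene was represented by 1 line. The study's methods give another plant age, length of WS and NaCl regime than the labels. With 1 array per state, no ratio below has a replicate error or a test, and the line, its dye and its array cannot be told apart.

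The size of the error within an array was gauged from spots printed repeatedly, a choice made after the data were examined. Log2 ratios of 11 genes printed in 144 spots of row 25 had a pooled SD between 0.17 and 0.22 on the 5 arrays. The 12 random negative control oligonucleotides, printed in 144 spots, have no intended Arabidopsis target. Their mean log2 ratios spanned −0.37 to 0.46 on the OE-*AhERF-VII* Op array, −0.06 to 0.46 in WS, −0.06 to 0.46 in R, −0.30 to 0.28 on the OE-*AhDof-AI* Op array and −0.23 to 0.33 in SS. The medians of the control spots were 0.13, 0.19 and 0.21 on the OE-*AhERF-VII* arrays and 0.04 and 0.05 on the OE-*AhDof-AI* arrays. Single control spots spanned −0.62 to 1.43, −0.66 to 1.04 and −0.37 to 0.74 on the OE-*AhERF-VII* arrays, in the same order. On the OE-*AhDof-AI* arrays they spanned −0.50 to 0.78 and −1.54 to 0.74. Whether a spot measures the locus in its name is a separate matter. Brightness followed the name among the repeated genes of row 25, with a pooled SD of 0.54 within a gene against 1.98 between gene means, but over 1620 pairs of other spots that share a transcript identifier the correlation of brightness was 0.07. The 13 leaf markers, among them the small subunit of Rubisco and the chlorophyll-binding proteins, lay at a median brightness percentile of 54.8 among all loci (12.3 to 81.7). The 3 seed storage proteins lay at a median of 67.9, with the lowest below the lowest leaf marker and the highest at 73.8. The root marker *PYK10* lay at 73.6. Brightness thus did not set the markers of the labelled tissue apart. Values below are therefore those of spots that bear a locus name.

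MIR spots were dim. Their brightness, the mean log2 intensity of both channels over the 5 arrays, had a median of 8.16 (quartiles 7.41 and 9.85), against 10.13 for the other gene spots of row 25 and 9.55 for all other gene spots. The median MIR spot stood at percentile 20.3 of row 25, at percentile 25.8 of all other gene spots and at percentile 32.6 of the random negative control spots, whose median was 8.84. Empty spots had a median of 6.18. A channel was called above background when its net intensity was over the limit below which 95% of the 510 empty spots lay. Between 50% and 80.6% of the random negative control spots passed this limit, depending on the channel. In each channel this was a larger share than that of the MIR spots. Signal above background thus does not by itself show a transcript of the named locus. By this limit 28 of the 91 MIR spots were above background in all 10 channels and 16 in none, whereas 54.2% of all gene spots were above it in all channels and 5.35% in none. For row 25 these shares were 62.6% and 3.60%.

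**Figure D1:**
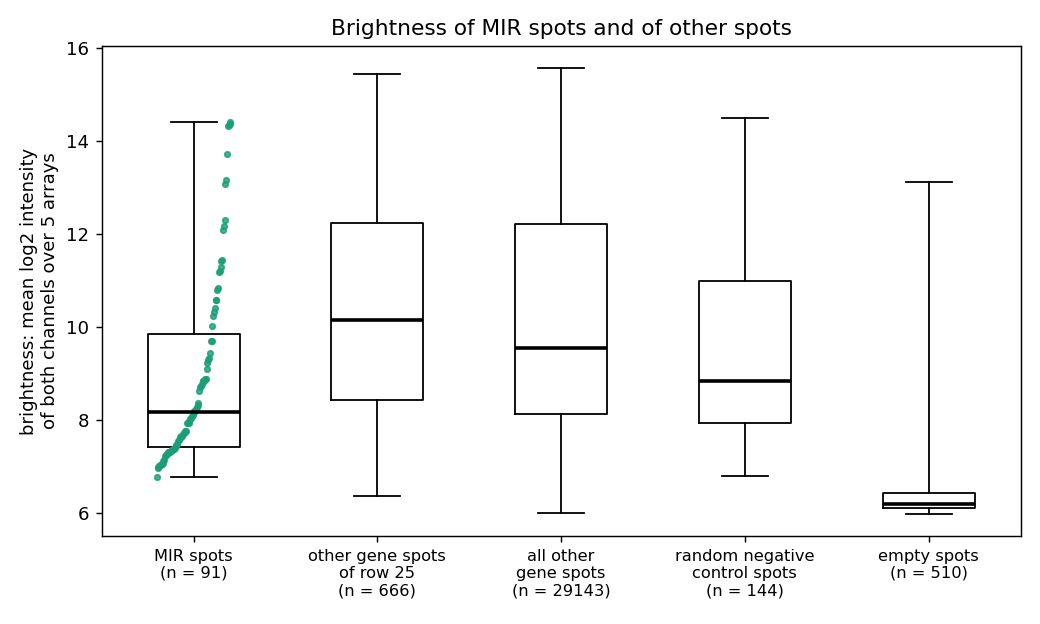
Brightness (mean log2 intensity of both channels over 5 arrays, vertical axis) of MIR spots and 4 other sets of spots. Boxes give quartiles and median, whiskers the lowest and highest spot, and green points the single MIR spots, most of which lie under the medians of row 25 (10.13) and of the random negative controls (8.84).

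The number of MIR spots above background varied between channels. In OE-*AhERF-VII* plants it was 41 in Op, 41 in WS and 31 in R, against 51, 60 and 54 in the WT channels of the same arrays. In OE-*AhDof-AI* plants it was 44 in Op and 47 in SS, against 47 and 66 in WT. All gene spots leaned the same way, with a smaller share above background in the transgenic than in the WT channel of each array (61.1% against 86.0% on the OE-*AhERF-VII* R array), and a net intensity that was lower in Cy5 for dim spots. Log2 ratios were therefore normalised within each array by loess against brightness, so that a log2 ratio states how a spot stands relative to gene spots of like brightness on the same array.

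The 5 brightest members belonged to miR168, miR162 and the family of miR156 and miR157, other spots of which were dim (*MIR156A* 6.99). *MIR168B* (mean brightness 14.40), *MIR162A* (14.37), *MIR157D* (14.34), *MIR168A* (14.31) and the third spot of *MIR156C* (13.72) stood above the 87th percentile of all other gene spots and above background in all channels. The miR169 family, whose targets are subunits of the transcription factor NF-Y, was the family with the most members in every channel: 10 of its 14 spots were above background in all 10 channels, with a median brightness of 10.98. By contrast, the 2 spots of miR393 and 3 of the 6 spots of miR399 were above background in none.

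The MIR spots were then read as a group. Their median log2 ratio of transgenic to WT was 0.06 in OE-*AhERF-VII* Op, 0.17 in WS, 0.01 in R, 0.10 in OE-*AhDof-AI* Op and 0.10 in SS. The other gene spots of row 25 had medians between 0.03 and 0.06, and gene spots of like brightness had medians within 0.02 of 0. Above 0 were 58.2% of the MIR spots in OE-*AhERF-VII* Op, 68.1% in WS, 52.7% in R, 61.5% in OE-*AhDof-AI* Op and 62.6% in SS, against 57.8%, 58.9%, 57.4%, 54.5% and 55.7% of row 25 and between 49.7% and 50.6% of all gene spots. With median centring the MIR medians were −0.28 in OE-*AhERF-VII* Op, −0.13 in WS, −0.24 in OE-*AhDof-AI* Op and −0.21 in SS. Above 0 on all 5 arrays were 27 of the 91 spots, and 12 were below 0 on all 5, whereas the shares over all gene spots were 18.7% and 18.4%. These shares are not given for row 25, whose other gene spots leaned above 0 on each array. The 5 arrays share the dye order and, within a transgene, the line, so that these counts do not rest on independent comparisons.

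Members at least 1.5-fold higher or lower were counted on each array, with no test. In OE-*AhERF-VII* Op, 4 of 91 MIR spots were higher, where 2.66% of all gene spots were, and 5 were lower, where 4.92% were. In WS, 4 were higher (2.36% of all gene spots) and 2 lower (3.83%). In R, none was higher (1.5%) or lower (1.84%). In OE-*AhDof-AI* Op, 4 were higher (1.38%) and 2 lower (4.07%), and in SS, 5 were higher (1.45%) and 3 lower (4.63%). A count of 4 is 4.40% of the 91 spots and a count of 2 is 2.20%, so each count differed from the share over all gene spots by few spots. The counts themselves depend on the processing. Lower calls were 26, 13, 8, 24 and 25 on the 5 arrays with median centring, and in R, 8 higher and 10 lower were called with plain subtraction of the background, and 3 and 11 in the deposited normalised values. No shares over all gene spots are given under these settings, so these counts do not set MIR spots apart from other spots.

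Other limits gave fewer calls on most arrays. At 2-fold no MIR spot was higher, where the shares of all gene spots were 0.438%, 0.109%, 0.0513%, 0.373% and 0.222% in OE-*AhERF-VII* Op, WS and R and OE-*AhDof-AI* Op and SS. *MIR395A* in OE-*AhERF-VII* Op, with neither channel above background, and *MIR395B* in SS, with the WT channel alone above it, were lower by that limit, where the shares were 0.54%, 0.212%, 0.0684%, 0.773% and 0.691%. A Z score sets a log2 ratio against those of the 100 gene spots nearest in brightness, and at a Z score of 2 the counts of higher spots were 3, 3, 3, 3 and 5 (1.78%, 2.0%, 2.32%, 1.51% and 1.35% of all gene spots). The counts of lower spots were 2, 1, 3, 2 and 3 (3.21%, 2.91%, 2.66%, 3.57% and 3.44%). By this limit the R array, which had no call by fold, had 3 spots in each direction. Among the random negative control spots, between 0.69% and 6.25% passed 1.5-fold in either direction.

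The 29 calls fell on 19 spots, and no spot was called in both directions. Only 8 of them had both channels above background, 4 had the WT channel alone above it, and 17 had neither, so that those 17 enter the counts but no levels or fold are given for them. The 8 calls with both channels above background were *MIR164A*, *MIR164C* and *MIR398C* (higher in OE-*AhERF-VII* WS), *MIR156C* spot 3 (lower in OE-*AhERF-VII* Op), *MIR398C* (higher in OE-*AhDof-AI* Op), and *MIR398C*, *MIR172A* spot 2 (both higher) and *MIR395E* (lower) in OE-*AhDof-AI* SS. Print-tip loess, which normalises each print block by itself, kept 14 of the 29 calls, and 5 of the 12 with a channel above background. Median centring kept 11 of the 29, turned the sign of 6, and kept 4 of the 12.

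**Figure D2:**
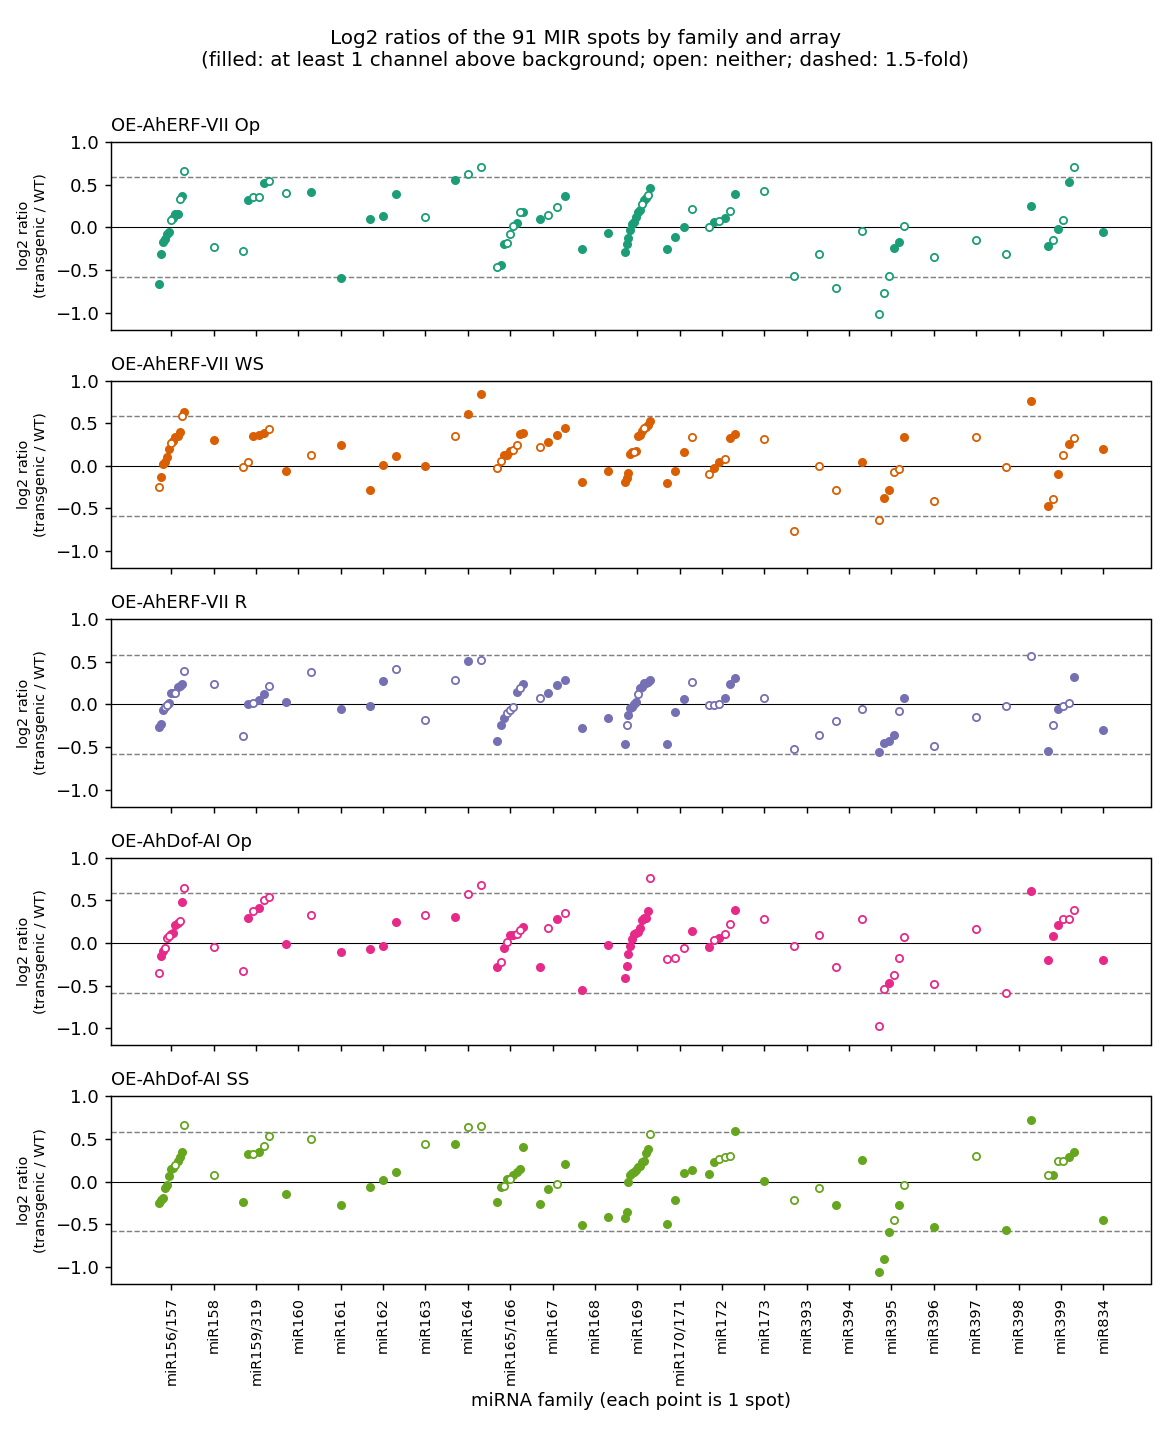
Log2 ratio of transgenic to WT (vertical axes) of each of the 91 MIR spots, by family, on the 5 arrays. Filled points have at least 1 channel above background, open points neither, and dashed lines mark 1.5-fold; miR164 spots lie above 0 on each array and 26 of 30 miR395 values below 0.

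The miR164 family, which acts on NAC transcription factors of organ boundaries and leaf senescence, stood above 0 in all 15 of its values (12 of 15 with median centring, and all values under the other alternatives tried). *MIR164A* (AT2G47585) was above background in all 10 channels. Its normalised level was 9.27 in OE-*AhERF-VII* plants and 8.71 in WT plants in Op, 9.59 and 8.98 in WS, and 8.88 and 8.37 in R, all on the log2 scale. On the other arrays it was 9.92 in OE-*AhDof-AI* plants and 9.62 in WT plants in Op, and 9.86 and 9.42 in SS. The transgenic level was thus the higher one on all 5 arrays, by log2 ratios between 0.30 and 0.61, and it passed 1.5-fold (1.53-fold) in WS only. With print-tip loess the log2 ratio of *MIR164A* was 0.35 in OE-*AhERF-VII* Op, 0.55 in WS, 0.37 in R, 0.13 in OE-*AhDof-AI* Op and 0.22 in SS, so that no array passed 1.5-fold.

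*MIR164C* (AT5G27807) had both channels above background on the OE-*AhERF-VII* WS array alone, where its normalised level in OE-*AhERF-VII* plants was 8.84, against 8.01 in WT plants. This is a log2 ratio of 0.84, or 1.79-fold, the largest upward value of any MIR spot on the 5 arrays. Its net intensity before the dyes were balanced was 237 in OE-*AhERF-VII* plants and 277 in WT plants, against medians over all gene spots of 474 and 795 in these channels. On the other 4 arrays neither of its channels was above background, nor was any of the 10 channels of *MIR164B* (AT5G01747). With median centring of each array in place of loess, the sign turned for *MIR164C* in SS (−0.02) and for *MIR164B* in OE-*AhERF-VII* Op (−0.11) and WS (−0.22), so the direction of these dim spots depends on the dye correction. Of the family, *MIR164A* on 5 arrays and *MIR164C* on 1 thus had signal above background in both channels.

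The miR398 family acts on copper/zinc superoxide dismutases and their copper chaperone, and it was represented by *MIR398B* and *MIR398C*. *MIR398C* (AT5G14565) in OE-*AhERF-VII* plants had a normalised level of 9.04, against 8.79 in WT plants, in Op, and of 9.12 against 8.36 in WS. In R neither channel was above background. It was 9.02 in OE-*AhDof-AI* plants and 8.41 in WT plants in Op, and 8.84 and 8.11 in SS. The transgenic level was higher on these 4 arrays, and at least 1.5-fold so in WS (1.69-fold), in OE-*AhDof-AI* Op (1.53-fold) and in SS (1.65-fold). With print-tip loess the WS call was kept (0.70), while the OE-*AhDof-AI* Op and SS values were 0.43 and 0.48. *MIR398B* (AT5G14545) lay below 0 on all 5 arrays and had 1 channel of 10 above background, the WT channel in SS. The 2 spots of the family thus lay on opposite sides of 0 on each array, though *MIR398B* was above 0 on 2 arrays with print-tip loess, with plain subtraction, with an offset of 16 and in the deposited normalised values, and on 1 with median centring.

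The miR395 family, which targets ATP sulphurylases and a sulphate transporter, lay mostly below 0, unlike miR164. Of its 30 values, 26 were below 0 (between 24 and 29 under the alternatives that keep all 30 values or leave out only those without a deposited value), and all 7 of its calls were lower. Most of these values came from dim spots. Without spots under the 25th percentile of brightness 7 values remained, 5 below 0 and 2 above 0. Its loci lie in 2 groups on chromosome 1: *MIR395A* and *MIR395B* are adjacent with *MIR395C* 1 gene away, and *MIR395E* and *MIR395F* are adjacent with *MIR395D* 2 genes away. *MIR395E* (AT1G69795) was the only one of the 6 above background in all 10 channels. Its normalised level was 9.34 in OE-*AhERF-VII* plants and 9.58 in WT plants in Op, and 8.82 and 8.48 in WS, and the log2 ratio in R was 0.07. It was 8.16 in OE-*AhDof-AI* plants and 8.63 in WT plants in Op, and 8.56 and 9.46 in SS. The value in SS was 1.87-fold lower (log2 ratio −0.90, Z score −3.20), whereas in WS and R the transgenic level was slightly the higher one. Its log2 ratio in SS ranged from −1.07 to −0.60 over the alternatives tried.

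*MIR395B* (AT1G26975) was called lower on 4 arrays. Its transgenic channel was never above background, and its WT channel was above it in R and SS. In SS the normalised level was 7.05 in OE-*AhDof-AI* plants and 8.11 in WT plants, and the net intensity was 19.4 and 395. Set against the dimmest gene spots above background in the transgenic channel, this is at least 1.05-fold lower. Only a small part of the measured log2 ratio of −1.06 thus rests on signal above background. *MIR395D* (AT1G69792) was 7.09 in OE-*AhDof-AI* plants and 7.68 in WT plants in SS, with the WT channel alone above background and no bound above 1-fold. *MIR395A* (AT1G26973) was called lower in OE-*AhERF-VII* Op with neither channel above background.

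**Figure D3:**
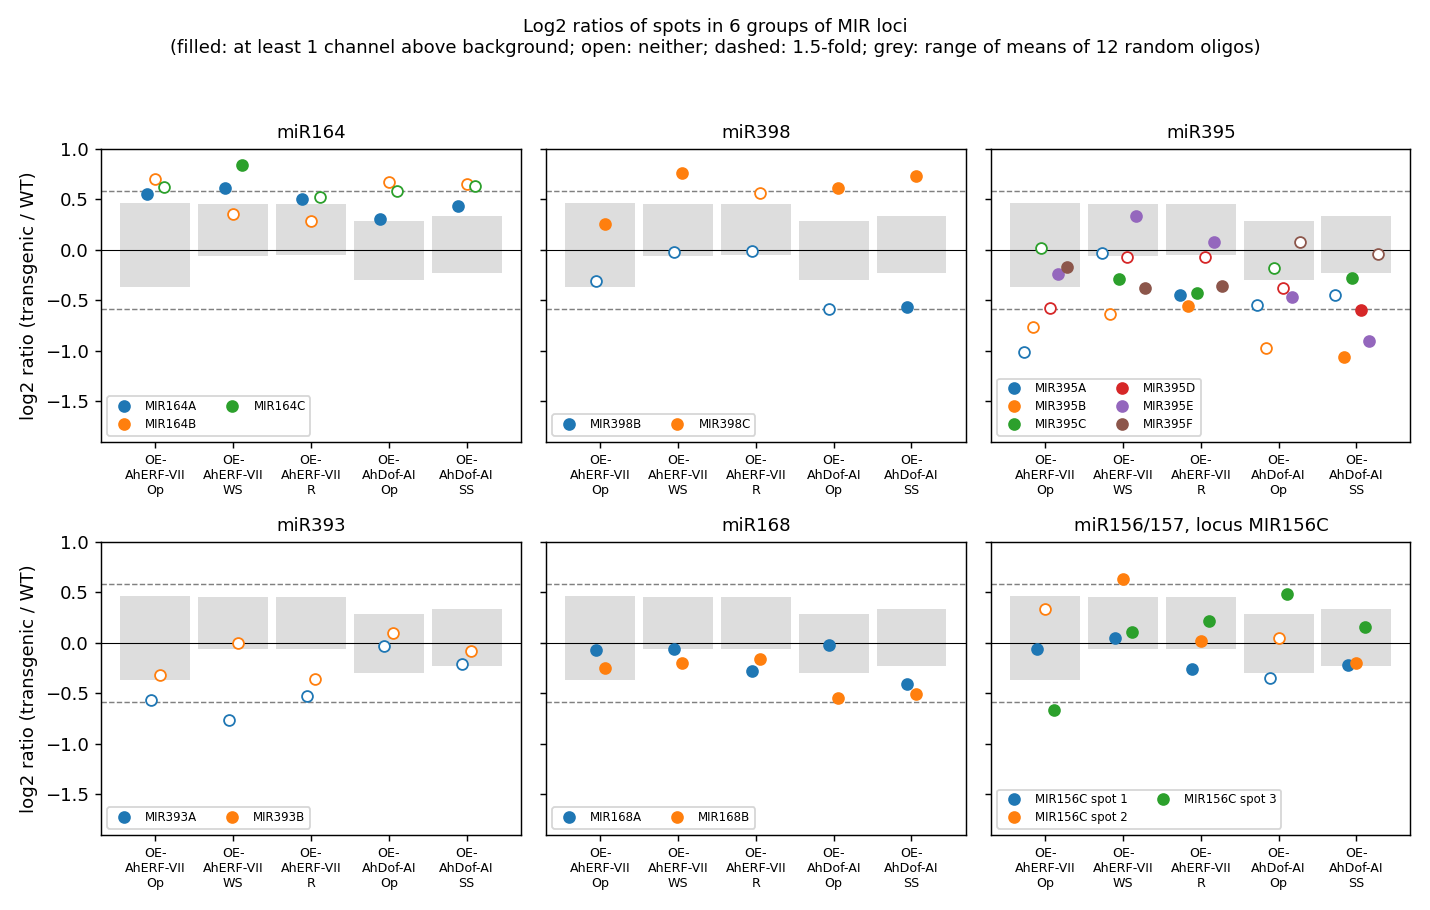
Log2 ratio of transgenic to WT (vertical axes) on the 5 arrays for the spots of miR164, miR398, miR395, miR393 and miR168 and for the 3 spots of *MIR156C*. Filled points have at least 1 channel above background, and dashed lines mark 1.5-fold. Grey bars span the means of the 12 random negative control oligonucleotides, each over repeated spots. Some points of every group lie outside the grey bars, and single control spots spanned a wider range than these means on every array. Some miR395 points lie below the lowest control spot. One is *MIR395A* in OE-*AhERF-VII* Op (−1.01, neither channel above background), where the lowest control spot was −0.62.

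Members of miR168 and miR162, which act on the small RNA machinery itself, had no call. *MIR168A* (AT4G19395) and *MIR168B* (AT5G45307) target AGO1. Both lay below 0 on all 5 arrays, but with median centring, which does not follow the brightness of a spot, both lay above 0 on all 5. Print-tip loess and the deposited normalised values each turned *MIR168A* on 1 array. *MIR168B* came nearest to the limit, at 14.29 in OE-*AhDof-AI* plants and 14.84 in WT plants in Op (log2 ratio −0.55) and 13.65 and 14.16 in SS (−0.51), and its Z score was −2.18 in Op. In OE-*AhERF-VII* plants its log2 ratios were between −0.25 and −0.16. *MIR162A* (AT5G08185), which targets DCL1, had log2 ratios between −0.28 and 0.25 over the 5 arrays, and the 2 dimmer spots of *MIR162B*, at mean brightness 8.27 and 10.58, had log2 ratios between −0.07 and 0.42.

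The family of miR156 and miR157, which targets SPL transcription factors and holds back the adult phase, had 13 spots at 11 loci and 65 log2 ratios, of which 43 were above 0. *MIR157D* (AT1G48742) was above 0 on every array, with log2 ratios between 0.13 and 0.35. *MIR156C* (AT4G31877) was printed 3 times, and its spots did not agree. Their mean brightness was 8.16, 7.55 and 13.72, and in OE-*AhERF-VII* Op spots 1 and 3 had log2 ratios of −0.06 and −0.66, while spot 2 had neither channel above background. For the third and brightest spot the level was 13.91 in OE-*AhERF-VII* plants and 14.57 in WT plants there, which is 1.58-fold lower, while the first, also with both channels above background, was near 0. On this array the brightest spot had a Z score of −1.88, and with median centring its log2 ratio was 0.41. The second spot was called higher in OE-*AhERF-VII* WS, at 8.41 against 7.78 in WT, with the WT channel alone above background. *MIR156F*, of the same family, was called higher in SS with neither channel above background.

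The 2 spots of *MIR172A* (AT2G28056) can be compared in the same way. This locus belongs to a family that targets APETALA2-like factors and acts opposite to miR156 in phase change. In SS the second spot was 9.50 in OE-*AhDof-AI* plants and 8.91 in WT plants, just past 1.5-fold (log2 ratio 0.59), while the first had a log2 ratio of 0.09 with both channels above background. All 6 miR172 spots were above 0 in SS and in OE-*AhERF-VII* Op, and 25 of 30 values of the family were above 0 over the 5 arrays (11 of 30 with median centring). Where a locus was printed more than once, a call of 1 spot was thus not shared by another spot of the locus with both channels above background.

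**Figure D4:**
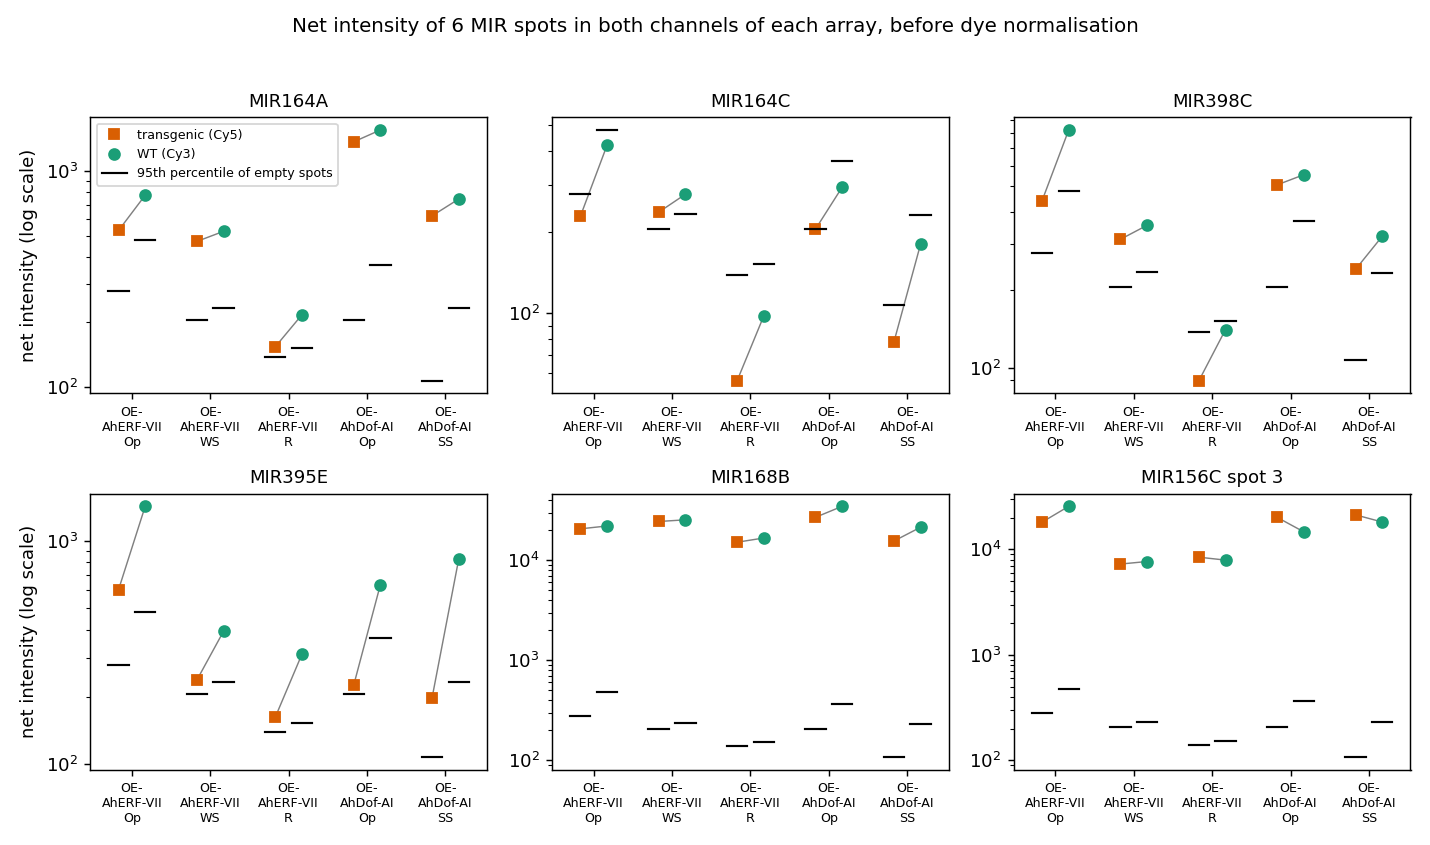
Net intensity (log scale, vertical axes) of 6 MIR spots in the transgenic channel (squares, left of each pair) and the WT channel (circles, right) of each array, before the dyes were balanced. Short black lines mark the 95th percentile of the empty spots of each channel; *MIR168B* and *MIR156C* spot 3 lie far above it and *MIR164C* near it.

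Of the remaining families with 3 or more spots, miR159 and miR319, counted as 1 family (targets MYB and TCP factors), had 25 of 30 log2 ratios above 0 (13 of 30 with median centring) and none past 1.5-fold, with the lowest at −0.37 and the highest at 0.54. In miR169, 51 of 70 values were above 0, and the only call, *MIR169F* in OE-*AhDof-AI* Op, had neither channel above background. *MIR169C*, listed by the study, was below 0 on all 5 arrays (−0.46 to −0.19), with all channels above background. The 6 neighbouring loci *MIR169I* to *MIR169N* had log2 ratios between −0.13 and 0.53. The family of miR165 and miR166 (targets HD-ZIP III factors) had 27 values above 0 and 18 below 0 and no call. Among the members of that family listed by the study, *MIR165B* spanned −0.43 to 0.19 and *MIR166D* −0.07 to 0.17. The miR167 family (targets *ARF6* and *ARF8*) had 16 of 20 values above 0 (1 of 20 with median centring), and the family of miR170 and miR171 (targets HAIRY MERISTEM genes) had 9 of 20, with *MIR171A* between −0.47 and 0.13. Neither had a call. In miR399, which targets the phosphate regulator PHO2, *MIR399C* spanned −0.54 to 0.53.

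Of the families with 1 or 2 spots, miR393, which targets the auxin receptors TIR1 and AFB, was below 0 in 9 of 10 values (8 to 10 under the alternatives with values), all from channels not above background, including the lower call of *MIR393A* in OE-*AhERF-VII* WS. *MIR161* (AT1G48267), which targets pentatricopeptide repeat genes, was 8.37 in OE-*AhERF-VII* plants and 8.96 in WT plants in Op, at least 1.36-fold lower, with the WT channel alone above background. Its log2 ratio there was −0.59, and −0.33 with print-tip loess. *MIR396B* had no call and 1 channel of 10 above background.

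WT plants were hybridised in 4 states, Op on both Op arrays and WS, R and SS on 1 array each. The WT Op channels of the 2 experiments, which carry different sample codes in the file headers, differed at least 1.5-fold in 28 of 91 MIR spots and in 32.2% of all gene spots, with an SD of the MIR log2 differences of 0.57. This is the spread against which the other states can be read. A MIR spot was counted where its WT level in a state was at least 1.5-fold outside both WT Op levels, a rule set after the data were examined. In WS, 5 spots were higher (6.38% of all gene spots) and 5 lower (6.09%). In R, 7 were higher (12.9%) and 10 lower (14.3%), and in SS, 4 were higher (3.34%) and 5 lower (4.61%). In WS and SS the MIR counts were close to the shares over all gene spots, and in R both were below them. The MIR median relative to Op was −0.03 in WS, −0.11 in R and −0.02 in SS, where the WT Op channels themselves differed by a MIR median of 0.08. With median centring of each channel these medians were 0.35, 0.72 and 0.45, so that their direction depends on how the channels are scaled.

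Some WT levels lay far outside both Op levels. The spots described here were picked after their values were seen, by no set rule, and others lay about as far out. Among those others, *MIR395F* was 9.30 in WS, against 8.00 and 7.77 in Op. *MIR167B* was 8.53 in R, against 7.24 and 7.19 in Op. *MIR160C* (AT5G46845) was 12.05 in SS and 11.18 in WS, against 9.81 and 10.46 in the WT Op channels. *MIR159B* (AT1G18075) was 14.09 in R and 13.32 in SS, against 11.87 and 12.44 in Op. *MIR399C* (AT5G62162) was 8.11 in WS and 8.48 in SS, against 10.13 and 9.37 in Op, and *MIR156E* (AT5G11977) was 7.99 in WS, against 9.90 and 9.51. Levels of *MIR159B* and *MIR160C* were above background in all 10 channels. Whether WT leaves or the arrays differ in these spots was not tested.

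Genes of the pathway were described from lists written with earlier results of these data known, and each locus was averaged over its spots. None of the 15 biogenesis and effector genes was higher at 1.5-fold on any array, and 0, 1, 0, 1 and 2 were lower in OE-*AhERF-VII* Op, WS and R and OE-*AhDof-AI* Op and SS. The share of all loci that was lower there was 4.64%, 3.59%, 1.71%, 3.86% and 4.5%. *HYL1*, which helps DCL1 place its cuts, was the lowest, with log2 ratios of −1.54 in OE-*AhDof-AI* Op and −0.95 in SS at a brightness percentile of 6.66. *TGH*, an RNA-binding partner of DCL1, was −0.69 in WS, and *HESO1*, which uridylates miRNAs, was −0.60 in SS. *AGO1*, at a brightness percentile of 95.4, was below 0 on all 5 arrays, between −0.53 and −0.22, and was not called. The bright spots *MIR168A* and *MIR168B* were also below 0 and not called, but lay above 0 with median centring. No alternative processing is given for *AGO1* or the other genes of these lists. *DCL1* was between −0.44 and 0.05.

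Of the 81 target loci on the array, 2, 0, 1, 0 and 0 were higher on the 5 arrays in the same order and 3, 3, 1, 1 and 1 were lower. Over all loci, the shares were 2.5%, 2.23%, 1.41%, 1.3% and 1.35% higher, and 4.64%, 3.59%, 1.71%, 3.86% and 4.5% lower. The target loci include those of miR403 and miR408, families with no MIR spot among the members. The median log2 ratio of the targets was between −0.02 and 0.01. Among targets of families with calls, *NAC092*, a senescence regulator that miR164 acts on, was −0.73 in OE-*AhERF-VII* WS, at a brightness percentile of 8.45. The other miR164 targets lay between 0.01 and 0.11 there, and none of the 6 was called on another array. *CCS*, the copper chaperone that miR398 acts on, was −0.63 in OE-*AhERF-VII* Op with neither channel above background. None of the 4 miR395 targets was called on any array. *TIR1*, a target of miR393, was 0.62 in OE-*AhERF-VII* Op. Elsewhere among the targets, *TCP10* (miR319) was −1.01 in WS and *SPL6* (miR156) −0.96 in OE-*AhERF-VII* Op. Besides *TIR1*, the targets called higher were *NF-YA9* (miR169), at 0.75 in OE-*AhERF-VII* Op, and *MYB65* (miR159), at 0.60 in R. *SCL6-IV*, a HAIRY MERISTEM gene that miR171 acts on, was the only target called on more than 2 arrays, with log2 ratios of −0.61, −0.65 and −0.66 in OE-*AhERF-VII* Op, WS and R and −0.63 in OE-*AhDof-AI* SS, each with a channel above background. It was −0.46 in OE-*AhDof-AI* Op, where neither channel was above background, and the other 2 miR171 targets had no call.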

How the data were processed

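Raw scanner files of the 5 arrays, deposited by the authors, hold, for each of 30000 spots and both channels, a mean spot intensity and a mean background around it; the scanner and its software are not given in the sources used here. Spots carry TAIR release 7 identifiers, and 25818 of 26017 loci were found in RefSeq (TAIR10.1 names; no coordinates were used). File headers call the lines DL25 and CL2, and the study's methods EL25 and DL2. The deposited log2 column holds the authors' own comparison and was not used, nor was the series table. The deposited normalised intensity files recorded for WS and R hold each other's raw array (100% of 25878 and of 25903 transcripts within 1 unit of WT intensity). They were used, matched to the raw arrays, as an alternative only.

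R 4.3.3 with limma 3.58.1 was used to correct background by normexp with an offset of 50, which pulls the ratios of dim spots toward 0, and log2 ratios were normalised by loess with control spots at weight 0. Levels of single channels were scaled between arrays by Aquantile. Later steps used Python 3.11.15, NumPy 2.4.6, pandas 2.3.3 and matplotlib 3.10.9. A call was a ratio of at least 1.5-fold, with no test and no p-value, as each state had 1 array. Background shares are over gene spots, since members are spots, and over loci for the gene lists. Where 1 channel was above background, the bound sets it against the higher of the other channel's own level and the lowest level among gene spots above background there. Intensity gives no count, so the number of arrays limits the precision. The steps were tested on simulated data.

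Members, lists and tests were chosen with earlier results of these data known. Named spots are those called with at least 1 channel above background, those in the study's table of microRNA genes, the 5 brightest, and members needed to describe a family of 3 or more. Spots named for their WT levels alone followed no set rule. The merging of related families (miR156 with miR157, miR159 with miR319, miR165 with miR166, miR170 with miR171), counts per spot and the use of repeated and random spots were decided after the data were examined.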

Additional observations from a re-analysis of the deposited data

Results flagged for a closer look

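In 2 cases a MIR spot lay on opposite sides of 0 on a pair of arrays, by at least 2 pooled spot SD on each. The brightest spot of *MIR156C* stood at a log2 ratio of −0.66 on the OE-*AhERF-VII* Op array and 0.48 on the OE-*AhDof-AI* Op array, a difference of −1.14, with all channels above background. With median centring the former value was 0.41, so that the 2 arrays no longer lay on opposite sides of 0. *MIR399C* had 0.53 in OE-*AhERF-VII* Op and −0.54 in R, a difference of 1.07, with both channels above background on both arrays. Neither difference was tested, since each value comes from 1 array. The limit was set after the values had been seen, and 3 other limits by fold were looked at, of which the loosest marked the same number of cases. Among 455 pairs of values, 114 had opposite signs, 2 did so by at least 2 SD, 1 with both at least 1.4-fold and 0 with both at least 1.5-fold. No shares over all gene spots are given for these limits, so the counts do not set MIR spots apart from other spots.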

How the results depend on the processing

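No paired analysis was possible because each state of a line had 1 array and no replicate numbers are shared, so that no replicate could be left out either. Counts below are given in the order OE-*AhERF-VII* Op, WS and R and OE-*AhDof-AI* Op and SS, and only those over 1.5 times away from the reported count are printed. For calls at 2-fold and at a Z score of 2, the shares over all gene spots are given above. For calls under the other settings none are given, so those counts do not set MIR spots apart. Calls of higher and lower MIR spots were 11 and 9, 14 and 4, 8 and 10, 9 and 4, and 13 and 7 with plain subtraction of the background, which adds no offset to dim spots. With a normexp offset of 16, higher counts were 7, 7, 3, 7 and 10, and lower counts were 5 in R, 4 in OE-*AhDof-AI* Op and 7 in SS. With median centring, which leaves the dye bias of dim spots in place, lower counts were 26, 13, 8, 24 and 25, higher counts were 8, 7, 5 and 7 on the first 4 arrays, and the MIR medians were −0.28, −0.13, −0.24 and −0.21 on all arrays but R. Under it *MIR156C* spot 3 was 0.41 and *MIR164B* −0.11 in OE-*AhERF-VII* Op, and *MIR164C* −0.02 (−0.0186) in SS, each with the sign turned. The deposited normalised values gave higher counts of 8, 10, 3, 8 and 14 and lower counts of 4 in WS, 11 in R, 4 in OE-*AhDof-AI* Op and 6 in SS, over members with 1 spot. Leaving out spots under the 25th percentile of brightness left higher counts of 1 on the OE-*AhERF-VII* Op array, 1 on the OE-*AhDof-AI* Op array and 2 in SS, and lower counts of 2 on the OE-*AhERF-VII* Op array, 0 in WS, 0 on the OE-*AhDof-AI* Op array and 1 in SS, since fewer spots were considered. Print-tip loess gave 2 lower in OE-*AhERF-VII* Op, 1 lower in R, and 2 higher in each of OE-*AhDof-AI* Op and SS. Subtracting the median of the print row gave 2 higher in WS and 1 lower in R, and no background correction 1 lower in OE-*AhDof-AI* Op. At 2-fold, higher counts were 0, 0, 0 and 0 outside R and lower counts 1, 0, 0 and 1. A Z score of 2 gave lower counts of 2 in OE-*AhERF-VII* Op and 1 in WS, and 3 higher and 3 lower in R.

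Of the 29 calls, 25 were kept without background correction, 29 with plain subtraction, 29 with offset 16, 14 with print-tip loess, 11 with median centring (6 with the sign turned) and 24 with the row median; the causes were not tested. The normalised values kept 20 of 26 (1 with the sign turned). Over 897 values of named spots, 668 moved by less than the spot SD and 226 by more, in addition to 3 calls with the sign turned. Values that were not called also turned sign, such as all those of *MIR168A* and *MIR168B* with median centring. They are counted among the 668 or the 226.

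With the 99th percentile of empty spots as limit, MIR spots above background in the transgenic channels were 15, 21, 13, 24 and 28, and in WT 19, 22, 21, 23 and 30. With the mean plus 2 SD of empty spots they were 21, 18, 12, 23 and 20, and in WT 21, 22, 13, 24 and 23. The median of the random negative controls, added after seeing the data, gave 27 in the transgenic WS channel, and 27, 28 and 35 in WT in WS, R and SS. The percentile of MIR brightness was 25.8 against all gene spots in place of 20.3 against row 25. With median centring of each channel the MIR median in WT was 0.72 in R relative to Op, against −0.11 as reported.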
